A study of Mus musculus with 8 samples.

Results

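Acetylation of histone H3 at lysine 27 (H3K27ac) was examined at 10 genes of fibroblast growth factor (FGF) signaling in mouse breast tumors, out of 21938 protein-coding genes in the annotation. The genes were chosen by name: the receptors Fgfr1, Fgfr2, Fgfr3 and Fgfr4, the ligands Fgf1, Fgf2, Fgf7 and Fgf10, and the feedback genes Spry1 and Spry2. Each gene was represented by its GENCODE M21 body plus 50 kb on either side, on the mouse assembly GRCm38 (mm10). Control tumors (2) came from PyMT;Rag1KO mice and test tumors (2) from K14-TSLPtg;PyMT;Rag1KO mice, all on a Balb/c background. Every mouse received CD4+ T cells by injection when 4 weeks old. PyMT is the polyoma middle T oncogene, which the mouse mammary tumor virus promoter drives in mammary epithelium. Rag1 loss, carried by both groups, removes the host's own T and B cells. The K14-TSLPtg transgene, carried by the test group alone, makes the cytokine TSLP from the keratin 14 promoter of basal keratinocytes. In the titles the word tumor goes with the control samples and cyst with the test samples, and collection was at terminal tumor size. The numbers 1 and 2 only name the tumors of a group.

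FGF ligands bind the extracellular domains of 4 receptor tyrosine kinases with the help of heparan sulfate. The activated receptors signal through the adaptor FRS2 to the Ras, MAP kinase and PI3 kinase pathways. Sprouty proteins are induced by this signal and dampen it. In the mammary gland, Fgf7 and Fgf10 are known as stromal ligands for the epithelial form of Fgfr2, whereas Fgf1 and Fgf2 also act on Fgfr1. H3K27ac marks active promoters and enhancers.

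The 4 tumors had between 59762 and 69861 peaks, the fewest in test 2. A peak here is an interval with a start and an end. Its height was not among the values used, so what follows describes where acetylation was called and how wide, as the percent of a window lying in peaks. A wider or more frequent peak can also come from deeper sequencing, and read depth is unknown from these lists. An exact permutation of 2 against 2 tumors has 3 splits and its two-sided p cannot go below 0.333, so that test could call no gene. No other test was run. The groups were called separate where both tumors of a group lay above both of the other, and each difference is given with the SD over its 4 control-test pairs (the pairing SD). In whole tumor tissue, fewer cells of a type and less acetylation per cell cannot be told apart.

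The labelled tissue was checked against marker genes. Between 11 and 12 of 12 luminal epithelial promoters had a peak in each tumor, and no hepatocyte promoter did. Counts for endothelial, fibroblast and myoepithelial promoters were lowest in test 2. Of 10 endothelial promoters, 5 and 5 had a peak in controls against 3 (test 1) and 0 (test 2). Of 12 fibroblast promoters, 4 and 3 had a peak in controls against 3 (test 1) and 0 (test 2). Of 10 myoepithelial promoters, 7 and 3 had a peak in controls, 5 in test 1 and 0 in test 2. The Tslp and Rag1 windows were covered in all 4 tumors and check neither the transgene nor the knockout.

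Coverage was higher in both control tumors at Fgfr1, Fgf2 and Spry2, that is 3 of the 9 genes with any peak, while 0 were higher in both test tumors. Over all genes with coverage, 13.0% were higher in both control tumors and 17.3% in both test tumors. At Fgfr2, Fgfr3, Fgfr4, Fgf1, Fgf7 and Spry1 the groups overlapped. Fgf10 had no peak in any tumor. The median difference, test minus control, was -1.44 percentage points over the 9 genes and 0.0192 over all 18693 genes with coverage. Without test 2 these medians were -0.298 and 0.229, and with 100 kb on either side the median over the 9 genes was -0.262.

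**Figure D1:**
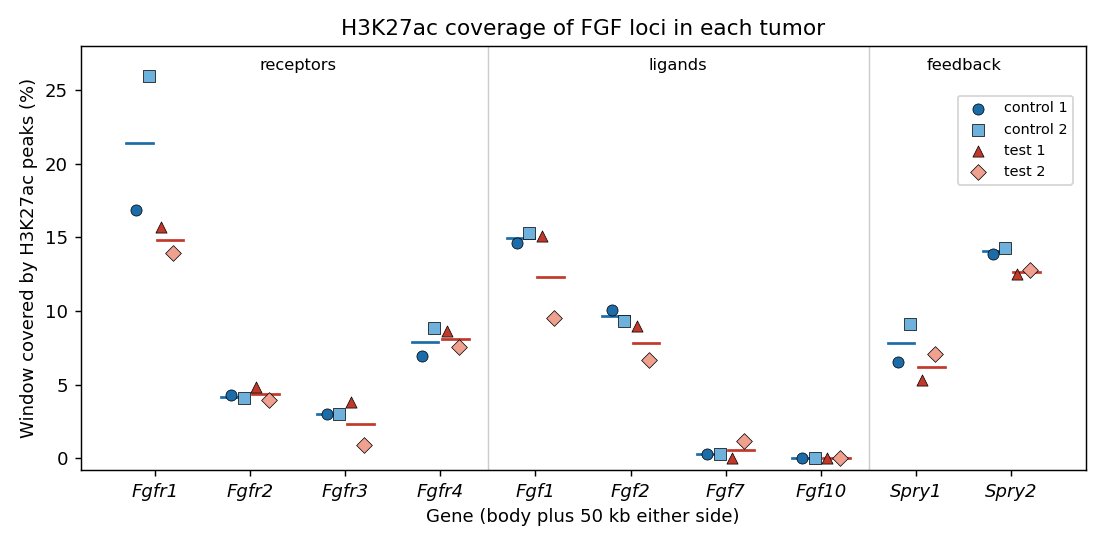
Percent of each gene's window (body plus 50 kb either side) that lay in H3K27ac peaks, with 1 symbol per tumor and short lines at the group means. Both control symbols lie above both test symbols at Fgfr1, Fgf2 and Spry2, and control 2 stands apart at Fgfr1 with 25.9%.

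Fgfr1, a receptor of mesenchyme whose human counterpart is often amplified in breast cancer, lies on the plus strand at chr8:25513654-25575718. Peaks covered 16.8% and 25.9% of its window in controls and 15.7% and 13.97% in the test tumors. Control 2 was far above the rest, and control 1 exceeded test 1 by little. The difference was -6.55 percentage points (pairing SD 5.34, pairings from -11.96 to -1.13), and 0.3% of all genes with coverage had a lower one. Without control 2 the difference was -2.00, and without control 1 it was -11.09.

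Most of the extra coverage of control 2 lay within the gene. Peaks covered 28.8 kb of the body in control 2, against 15.3 kb in control 1, 14.2 kb in test 1 and 12.6 kb in test 2. The widest region, in the first part of the gene and centred 10.7 kb into it, was covered over 11424 bp in control 2, 5895 bp in control 1, 4467 bp in test 1 and 4552 bp in test 2. The next region, centred 21.02 kb into the gene, was covered over 7918 bp in control 2 and between 3792 and 4031 bp in the others. Both were present in every tumor, so the difference there was one of width. The widest one, chr8:25518595-25530018, holds the RefSeq start of Fgfr1, chr8:25518759, at which all 4 tumors had a promoter peak.

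Peaks of the 4 tumors that overlapped were joined into regions, and the Fgfr1 window held 32. Of these, 10 were present in all 4 tumors. The one among them at the GENCODE 5′ end had 2236 and 2958 bp covered in controls and 2384 and 2432 bp in the test tumors. A further 18 were in a single tumor, 14 of them in control 2. Over all regions found in a single tumor, 25.4% belonged to control 2. Outside the window control 2 stood apart less. The 450 kb before it had 10.0% and 10.8% covered in controls and 9.46% and 8.99% in the test tumors, and the 450 kb after it 3.61% and 4.41% against 4.58% and 4.33%.

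Regions that each control tumor had and no test tumor had are called control-only, and those of the opposite pattern test-only. The Fgfr1 window held 3 control-only and 0 test-only regions. One, chr8:25546797-25547264, lay in an intron, with 188 and 335 bp covered in controls. Another, chr8:25574914-25575121, lay in the 3′ untranslated region, with 189 and 201 bp covered. The last, chr8:25586488-25586966, overlapped a coding exon of the neighbor Letm2, with 418 and 346 bp covered. All 3 were narrow. The promoters of both neighbors in the window, Letm2 and Nsd3, had a peak in all 4 tumors.

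For the intronic region and the one at Letm2, the parts that both control tumors shared are shown here as stretches that had peaks in the control tumors and none in the test tumors. The shared part of the untranslated one is not shown. The letters are the C57BL/6J reference (RefSeq GRCm38), plus strand, whereas the tumors were Balb/c. Each sequence printed was searched on both strands for the GC box GGGCGG, the TATA box TATAAA, the ETS core GGAAGT, the AP-1 sites TGACTCA and TGAGTCA, the STAT site TTCNNNGAA, the GATA site AGATAA, the TEAD site GGAATG, the RUNX site TGTGGT and the Snail and Zeb type E-box CACCTG, with matches in capitals. A RUNX match stood in the intronic stretch, and 3.91% of all regions cut to that length held one. The stretch at Letm2 and the untranslated one held none of these motifs.
Fgfr1 intron, chr8:25547077-25547131: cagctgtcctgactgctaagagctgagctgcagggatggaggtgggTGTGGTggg
Fgfr1 downstream in Letm2, chr8:25586621-25586905: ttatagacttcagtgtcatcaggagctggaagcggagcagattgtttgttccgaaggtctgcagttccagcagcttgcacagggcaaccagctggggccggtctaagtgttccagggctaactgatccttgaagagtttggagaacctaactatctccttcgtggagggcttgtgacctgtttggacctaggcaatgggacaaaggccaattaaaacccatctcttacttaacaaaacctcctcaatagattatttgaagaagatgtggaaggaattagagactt

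**Figure D2:**
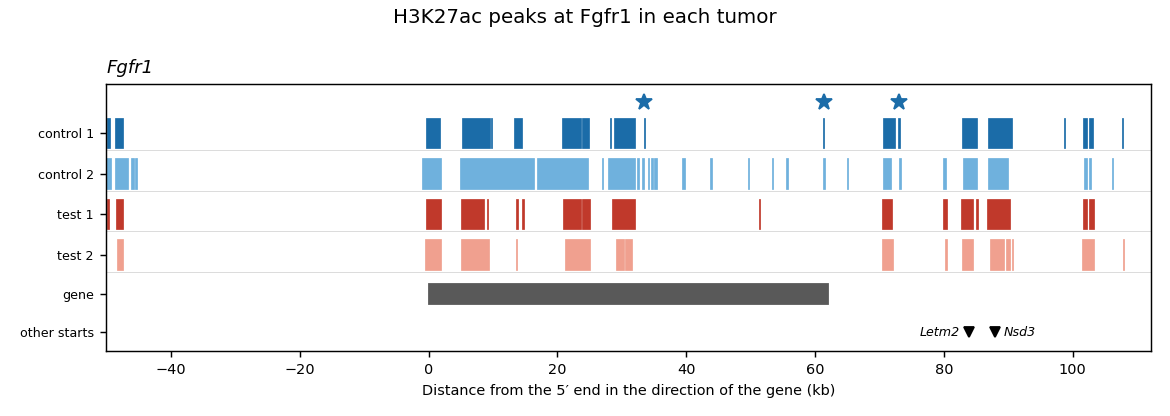
H3K27ac peaks in each tumor across the Fgfr1 window, by distance from the 5′ end of the gene in kb. Bars are peaks, the gray bar is the gene, triangles are starts of other genes and stars mark the 3 control-only regions. Control 2 shows near-continuous peaks in the first part of the gene, where the other tumors show separate ones.

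The genes whose coverage over the 4 tumors was nearest to that of Fgfr1, by Euclidean distance, were Hdac7, a class II histone deacetylase, Apol8, and Eng, the TGF-β co-receptor of endothelium and a gene of the endothelial marker list. Eng had 19.5% and 22.6% of its window covered in controls and 18.7% and 13.4% in the test tumors. Hdac7 had 17.7%, 22.4%, 18.3% and 13.8% in the same order. Apol8 had 13.5%, 25.7%, 12.6% and 14.1%, with control 2 alone standing high, as at Fgfr1. Summed over the 10 endothelial markers, window coverage was 52.0 and 54.1 in controls and 47.6 and 41.0 in the test tumors. Eng, picked above for its likeness to Fgfr1, is part of that sum, which is therefore no separate support. Of the 10 markers, 6 were higher in both control tumors, Eng among them, and 0 in both test tumors. Over all genes with coverage these shares were 13.0% and 17.3%. Every endothelial marker was covered in at least 1 tumor, and Cdh5, Emcn and Erg were at 0 in test 2. Tie1 was instead highest in test 2, with 8.06% and 9.42% in controls against 8.65% (test 1) and 11.4% (test 2). The part of endothelial cells in the Fgfr1 difference was not tested.

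Fgfr2, a receptor of the mammary epithelium, could not be read from its GENCODE record alone. That record (chr7:130162451-133123350, minus strand) is 2960900 bp long because 1 protein-coding transcript starts close to Ctbp2, and its window holds the starts of 30 other genes. Coverage was 4.29% and 4.09% in controls against 4.86% and 3.94% in test tumors, so the groups overlapped. The window held 2 control-only regions, located in Ate1 and Tacc2, and 4 test-only regions, located in Tacc2, Lhpp (2) and Fam53b. All these genes overlap the long record, and none of these regions lay within the RefSeq window described next.

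The RefSeq body of Fgfr2 is chr7:130162451-130266808. With 50 kb on either side, 1.23% and 1.27% were covered in controls and 2.55% and 0.797% in the test tumors, the highest and the lowest value both being of the test group. There were 8 regions, and 1 was in all 4 tumors, an intronic one with 1649 and 892 bp covered in controls and 2564 and 1278 bp in the test tumors. A region just inside the start had 178 and 207 bp covered in controls against 963 bp (test 1) and 0 (test 2). The window held neither control-only nor test-only regions.

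Fgfr3, a receptor of epithelia and cartilage, lies at chr5:33721674-33737068 on the plus strand. Coverage was 3.05% and 3.02% in controls against 3.80% (test 1) and 0.939% (test 2). The number of peaks was 6, 6 and 6, and then 1 in test 2. That remaining peak was at the promoter of the neighbor Letm1, the only region of this window found in all 4 tumors. The Fgfr3 promoter had 199 and 158 bp covered in controls against 221 bp (test 1) and 0 (test 2). The upstream regions centred at -15.8 kb and -40.03 kb from the start were likewise absent from test 2 alone.

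Fgfr4, a receptor best known in liver and muscle, lies at chr13:55152640-55168759 on the plus strand. Coverage was 6.92% and 8.82% in controls against 8.68% and 7.57% in test tumors, with the groups overlapping. With 20 kb on either side both control tumors were higher, at 5.61% and 6.34% against 5.21% and 4.92%. No tumor had a peak at the promoter, and the body held a single peak, of 264 bp, in control 2. The coverage lay around the gene, where 6 of 12 regions were in all 4 tumors, including the promoters of Zfp346 and Nsd1. Gm17617, which also starts in this window, had no promoter peak in any tumor. The nearest region found in all 4 was centred at -3.74 kb from the start, with 759 and 772 bp covered in controls and 381 and 921 bp in the test tumors.

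The RefSeq promoters of Fgfr3 and Fgfr4 (from 250 bases before to 50 after a start) are shown for the receptors with few or no promoter peaks. Fgfr3 has 2 entries. The one printed, chr5:33722056-33722355, is the one that met a peak, and had 158 and 158 of its 300 bases in peaks in controls against 64 (test 1) and 0 (test 2). The other Fgfr3 entry, chr5:33721474-33721773, and the Fgfr4 promoter, chr13:55152568-55152867, had 0 in all 4. Over 32851 promoters, 35.7% held a GC box and 14.7% a TEAD site. The Fgfr3 sequence held 2 GC boxes that overlap by a base, the other Fgfr3 entry 4 GC boxes, and the Fgfr4 sequence 4 GC boxes and 1 TEAD site.
Fgfr3 promoter, plus strand: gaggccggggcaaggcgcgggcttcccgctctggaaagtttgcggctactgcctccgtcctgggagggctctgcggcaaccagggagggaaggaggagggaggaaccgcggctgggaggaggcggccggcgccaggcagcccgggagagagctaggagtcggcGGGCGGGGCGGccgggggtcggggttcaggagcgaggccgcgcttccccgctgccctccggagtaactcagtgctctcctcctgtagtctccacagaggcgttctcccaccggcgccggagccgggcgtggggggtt
Fgfr4 promoter, plus strand: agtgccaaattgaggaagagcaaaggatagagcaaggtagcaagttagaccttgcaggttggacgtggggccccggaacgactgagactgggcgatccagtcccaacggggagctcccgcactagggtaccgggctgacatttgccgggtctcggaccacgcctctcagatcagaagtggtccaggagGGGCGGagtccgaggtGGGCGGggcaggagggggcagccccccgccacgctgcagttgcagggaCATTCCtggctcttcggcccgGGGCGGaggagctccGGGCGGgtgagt

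**Figure D3:**
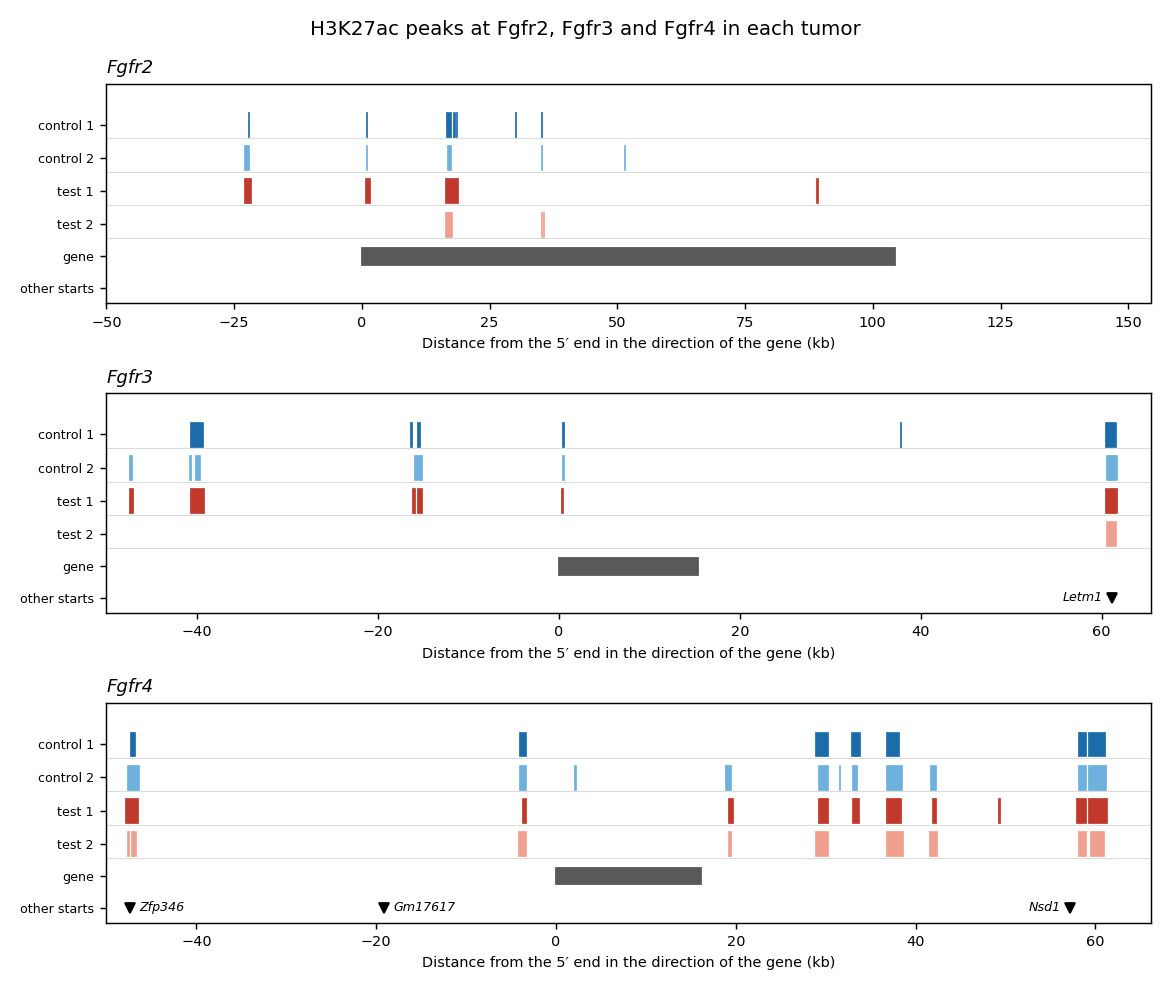
H3K27ac peaks in each tumor across the windows of Fgfr2 (RefSeq body), Fgfr3 and Fgfr4, by distance from the 5′ end in kb. Gray bars are the genes and triangles the starts of other genes. In test 2 the start regions of Fgfr2 and Fgfr3 are empty, and at Fgfr4 the gene itself is nearly empty in every tumor.

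Fgf1 and Fgf2, which both lack a classical signal peptide, had the most coverage of the 4 ligands. Of the further Fgf-named genes in the pathway list, Fgf11 reached values like those of Fgf1. Its window was covered over 14.2% and 14.7% in controls against 16.2% and 12.1% in test tumors. Fgf1, an activator of all 4 receptors, lies on the minus strand of chromosome 18 (chr18:38838673-38929472). Coverage was 14.6% and 15.3% in controls against 15.1% (test 1) and 9.55% (test 2). Test 2 was the low one and test 1 lay between the control tumors. The difference was -2.60 percentage points (pairing SD 3.25), and it was 0.19 without test 2 and -5.39 without test 1. By number of peaks both control tumors were higher, at 27 and 26 against 23 and 20 in the test tumors. The body was covered over 22.4% and 25.2% in controls against 26.1% (test 1) and 13.9% (test 2).

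The Fgf1 window held 30 regions, 14 of them in all 4 tumors. The promoter was among these, with 2441 and 2452 bp covered in controls and 2636 and 2147 bp in the test tumors. The widest region, in an intron 6.10 kb from the start, had 3753 and 3818 bp covered in controls and 3859 and 2995 bp in the test tumors. Within the body, other regions were far narrower in test 2, and 2 of them are given here as examples. One had 1678, 1681, 2087 and 238 bp covered, and the other 1556, 1068, 1758 and 170 bp, in the order control 1, control 2, test 1, test 2. The 2 control-only regions lay at -43.8 kb and 134 kb from the start, both inside introns of the gene Arhgap26. They lie on either side of Fgf1, so the whole Fgf1 body lies within Arhgap26. Coverage of this window cannot be assigned to either gene alone.

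Fgf2, or basic FGF, a mitogen of fibroblasts and endothelium, lies at chr3:37348346-37410108 on the plus strand. Coverage was 10.1% and 9.34% in controls against 9.01% and 6.69% in test tumors. Both control tumors were higher, though control 2 and test 1 were close. The difference was -1.85 percentage points (pairing SD 1.41). It was -0.68 without test 2, -3.01 without test 1 and -0.26 with 100 kb on either side, and the groups overlapped once peaks within 1 kb of each other were joined. The number of peaks did not follow it, at 12 and 12 in controls and 13 and 12 in the test tumors. Present in the window were 11 and 12 regions in controls against 11 and 9 in test tumors.

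The widest region at Fgf2, centred at -18.5 kb from the start, had 3806 and 3460 bp covered in controls against 2647 bp (test 1) and 1105 bp (test 2). The promoter had 492 and 185 bp covered in controls against 847 bp (test 1) and 0 (test 2). Downstream of the gene the groups overlapped, with 7.34% and 8.99% covered in controls and 8.45% and 11.3% in the test tumors. The 4 neighbors Cetn4, Bbs12, Nudt6 and Spata5 have their starts in this window. Summed over the 12 fibroblast markers, window coverage was 44.9 and 34.8 in controls against 40.3 and 28.5 in test tumors, with Lum at 0 in all 4. Of the 12 markers, 4 were higher in both control tumors and 1, Fap, in both test tumors. Over all genes with coverage these shares were 13.0% and 17.3%. Col1a2 and Dcn, which were among the 4, were at 0 in both test tumors. The part of fibroblast and endothelial cells in the Fgf2 difference was not tested.

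The only control-only region at Fgf2, chr3:37355120-37355629, lay in an intron 7.03 kb from the start, with 510 and 189 bp covered. Its shared part is shown with the Fgf2 promoter, since both lacked a peak in test 2. Of the 300 promoter bases (chr3:37348403-37348702), 168 and 0 were in peaks in controls against 300 (test 1) and 0 (test 2). The promoter held 1 GC box, and the intronic stretch held none of the motifs searched.
Fgf2 promoter, plus strand: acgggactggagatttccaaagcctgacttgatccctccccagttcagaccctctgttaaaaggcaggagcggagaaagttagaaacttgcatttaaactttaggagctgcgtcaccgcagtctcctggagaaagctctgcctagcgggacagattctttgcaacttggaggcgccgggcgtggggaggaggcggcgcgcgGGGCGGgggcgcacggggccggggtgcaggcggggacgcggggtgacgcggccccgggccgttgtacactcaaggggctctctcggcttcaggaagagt
Fgf2 intron, chr3:37355261-37355449: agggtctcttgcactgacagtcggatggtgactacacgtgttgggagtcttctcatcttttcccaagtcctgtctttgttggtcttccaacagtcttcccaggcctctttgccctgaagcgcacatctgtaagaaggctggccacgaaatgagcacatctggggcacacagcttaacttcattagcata

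Fgf7 and Fgf10, the stromal ligands of the epithelial form of Fgfr2, had few peaks or none. Fgf7 (chr2:126034658-126091185, plus strand) had 0.309% and 0.288% of its window covered in controls against 0 (test 1) and 1.18% (test 2). The number of peaks was 1, 1, 0 and 5. No region was in all 4 tumors, and no tumor had a peak at the promoter. One intronic region was found in more than 1 tumor, with 451 bp covered in control 2 and 792 bp in test 2. Fgf10 (chr13:118669791-118792115, plus strand) had 0 peaks in its window in any tumor. Of all protein-coding genes, 14.8% had no peak in their window.

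**Figure D4:**
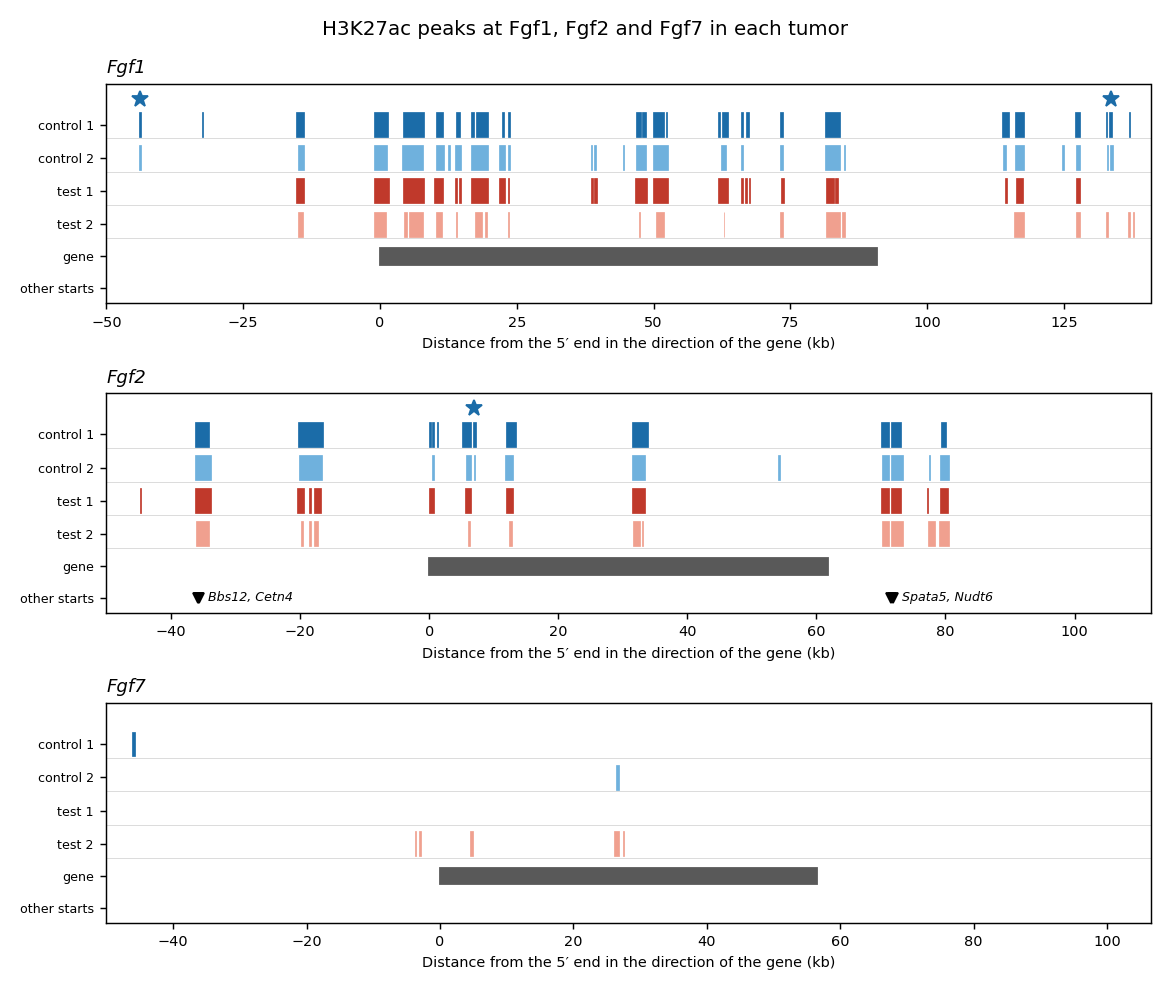
H3K27ac peaks in each tumor across the windows of Fgf1, Fgf2 and Fgf7, by distance from the 5′ end in kb. Stars mark the control-only regions, 2 at Fgf1 and 1 at Fgf2. Within the bodies of Fgf1 and Fgf2 less is covered in test 2 than in the other tumors, and Fgf7 has few peaks, most of them in test 2.

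Spry1 and Spry2, the feedback inhibitors, were acetylated at their promoters in all 4 tumors. Spry1 lies at chr3:37639947-37644598 on the plus strand. Its window was covered over 6.53% and 9.10% in controls against 5.33% and 7.12% in test tumors, so the groups overlapped. Both control tumors were higher with 20 kb on either side, at 10.3% and 16.4% against 8.66% and 10.1%, and with 100 kb, at 7.91% and 9.54% against 5.73% and 7.37%. Within the gene the groups did not overlap, and both control tumors were higher, with 58.0% and 88.5% of the body covered in controls and 35.0% and 43.6% in the test tumors. Over all gene bodies with coverage, 13.4% were higher in both control tumors. The region at the start was alike in all 4, with 990 and 1006 bp in controls and 989 and 974 bp in the test tumors. The next region, centred 2.42 kb into the gene, differed, with 2050 and 2970 bp against 1018 and 1350 bp.

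The Spry1 window held 1 test-only region, chr3:37596324-37596688, centred at -43.4 kb from the start and outside any annotated gene, with 246 bp covered in test 1 and 365 bp in test 2. Its shared part is shown as the only test-only stretch of these genes outside the long Fgfr2 record, beside the Spry1 promoter (chr3:37639697-37639996), which lay wholly in peaks in all 4 tumors. The upstream stretch held a GC box next to a RUNX site, and of all regions cut to its length 9.21% held the first and 17.2% the second. The promoter held 1 GC box and 1 TEAD site.
Spry1 upstream, chr3:37596404-37596649: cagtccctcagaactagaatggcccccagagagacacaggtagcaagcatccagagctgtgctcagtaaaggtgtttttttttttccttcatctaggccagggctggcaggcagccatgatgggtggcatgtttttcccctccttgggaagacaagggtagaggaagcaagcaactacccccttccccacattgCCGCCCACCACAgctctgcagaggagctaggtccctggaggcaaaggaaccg
Spry1 promoter, plus strand: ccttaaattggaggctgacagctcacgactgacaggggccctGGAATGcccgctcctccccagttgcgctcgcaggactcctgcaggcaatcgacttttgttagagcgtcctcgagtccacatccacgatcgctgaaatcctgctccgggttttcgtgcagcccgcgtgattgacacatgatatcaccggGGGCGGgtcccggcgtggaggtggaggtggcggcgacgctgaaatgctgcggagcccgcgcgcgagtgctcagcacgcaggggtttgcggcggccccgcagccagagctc

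Spry2 lies at chr14:105891947-105896819 on the minus strand. Coverage was 13.9% and 14.3% in controls against 12.5% and 12.8% in test tumors. Both control tumors were higher, by a small margin with little spread, the difference being -1.44 percentage points (pairing SD 0.288). The groups overlapped once coverage was scaled by the total covered length of each tumor (13.2 and 14.7 in controls against 11.9 and 13.8), and by number of peaks, at 10 and 7 in controls against 8 and 7 in test tumors. The body was covered over 100% in 3 tumors and 95.2% in test 1. The widest region, over the whole gene and its promoter, had 7694 and 7699 bp covered in controls and 7342 and 6702 bp in the test tumors. Its RefSeq promoter (chr14:105896770-105897069) had between 279 and 288 of 300 bases in peaks and held none of the motifs searched. There were no control-only or test-only regions.

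**Figure D5:**
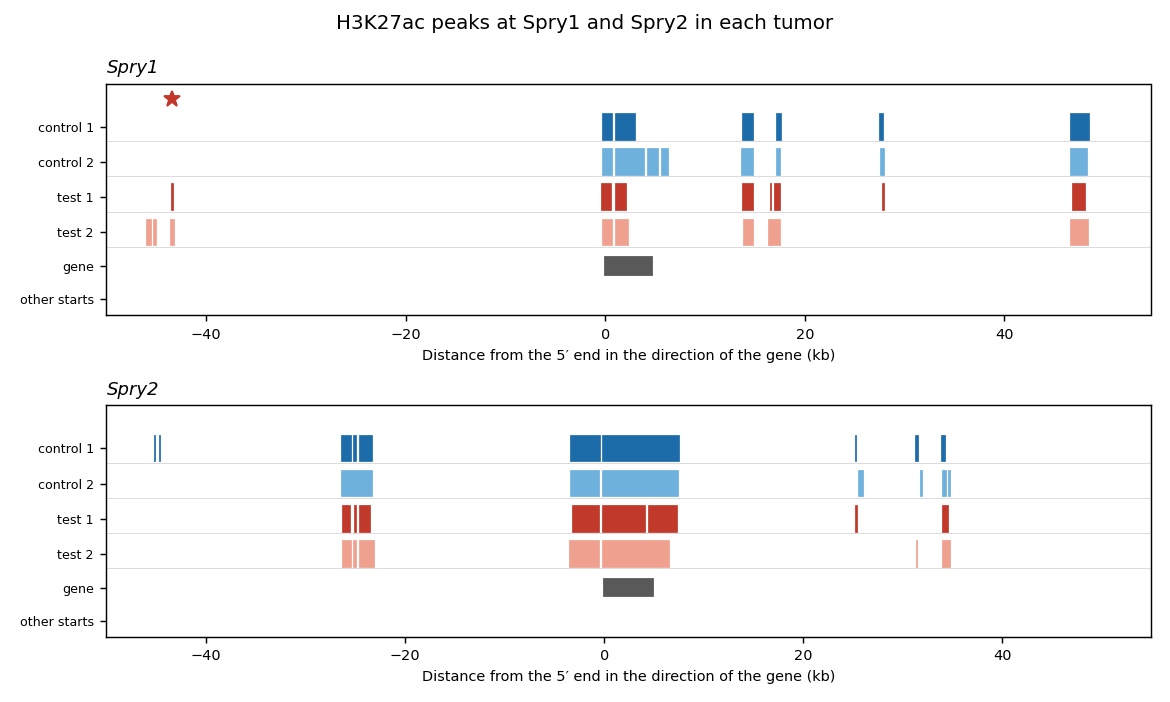
H3K27ac peaks in each tumor across the windows of Spry1 and Spry2, by distance from the 5′ end in kb. The star marks the test-only region at -43.4 kb from the Spry1 start. Peaks within Spry1 reach farther in controls and at Spry2 the same block of peaks covers the gene in all 4.

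At the 5′ ends of the GENCODE records, 5 of the 10 genes had a promoter peak in all 4 tumors: Fgfr1, Fgfr2, Fgf1, Spry1 and Spry2. Over all genes, 49.6% did. The Fgfr2 one was the far start beside Ctbp2. Fgfr3 and Fgf2 had a promoter peak in every tumor but test 2, a pattern of 1.68% of all genes. Counting any annotated transcript start, Fgf2 had a peak in all 4 tumors and Fgfr3 still had none in test 2. At the 5′ ends of the records, Fgfr4, Fgf7 and Fgf10 had no promoter peak in any tumor, like 42.8% of genes. By any annotated start, Fgfr4 had one in control 2. At the RefSeq starts, Fgfr2, Fgfr3 and Fgf2 lacked a peak in test 2 alone. Test 2 had the fewest peaks of the series, and of all regions found in exactly 3 tumors, 54.4% lacked it.

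The windows of the 10 genes held 274 regions. Of these, 108 were in all 4 tumors (39.4%, against 38.1% of all 91238 regions). A further 97 were in a single tumor, as were 36.2% of all regions. There were 8 control-only regions, a pattern of 3.41% of all regions, and 5 test-only regions, against 1.47%. Control-only regions were at Fgfr1, Fgfr2, Fgf1 and Fgf2, 4 of the 9 genes with coverage beside 22.3% of all gene windows. Test-only ones were at Fgfr2 and Spry1, 2 of the 9 beside 12.2%. The long Fgfr2 record accounts for 2 of the control-only and 4 of the test-only regions.

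The remaining genes of the pathway were read from a list of 63 further Fgf-named genes, co-receptors, transducers, feedback inhibitors and targets. Of these, 62 matched the annotation and 60 had coverage. Both control tumors were higher at 10 of the 60 and both test tumors at 6, beside 13.0% and 17.3% of all genes. The groups overlapped at 44. The median difference was -0.157 percentage points.

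Among the listed Fgf-named genes with coverage, 3 of 16 were higher in both control tumors and 3 in both test tumors. Fgf12 had 0.473% and 0.443% of its window covered in controls against 0.363% and 0.380% in test tumors. Fgf14 had 0.101% and 0.022% in controls against 0 in both test tumors. Fgf20, a ligand known from neurons and hair follicles, had 3.82% and 2.82% of its window covered in controls and 1.38% and 2.30% in the test tumors. Fgf22 had 5.90% and 5.88% in controls against 7.82% and 6.04% in test tumors. Fgf9 and Fgf18 were higher in both test tumors by 0.27 and 0.26 percentage points, from coverage below that of the median gene.

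Of 16 co-receptors and binding proteins, 3 were higher in both control tumors and 2 in both test tumors. Fgfrl1, a receptor-like protein without a kinase domain, had 20.4% and 20.5% in controls against 19.3% (test 1) and 7.53% (test 2). Ndst1, which sulfates heparan sulfate, had 30.5% and 30.2% in controls against 28.8% and 23.4% in test tumors. Fgfbp3, a secreted carrier of FGFs, and Flrt2, a membrane partner of the receptors, were higher in both test tumors by 0.52 and 0.42 percentage points. In Fgfrl1, as in Fgf1, the low value was that of test 2.

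All 15 adaptors and transducers had a promoter peak in all 4 tumors, as did 49.6% of all genes. Of the 15, 2 were higher in both control tumors and 1 in both test tumors. Frs2, the adaptor bound to the receptors, had 4.76% and 5.33% in controls against 7.84% and 5.39% in test tumors. Map2k1, the kinase MEK1, had 9.11% and 9.47% in controls against 9.08% and 6.76% in test tumors. Control 1 and test 1 were nearly alike there, and control 2 and test 2 were nearly alike at Frs2.

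All 8 matched feedback inhibitors other than Spry1 and Spry2 overlapped between the groups. Of all genes with coverage, 13.0% were higher in both control tumors and 17.3% in both test tumors. All 8 had a promoter peak in all 4 tumors, as did 49.6% of all genes. Dusp6, the ERK phosphatase, had 23.1% and 21.4% of its window covered in controls and 21.8% and 23.6% in the test tumors. Spry4 had 7.72% and 8.36% in controls against 6.37% and 8.45% in test tumors. Of 5 targets, 2 were higher in both control tumors and 0 in both test tumors, beside 13.0% and 17.3% of all genes. Etv5, an ETS factor induced by FGF signaling, had 16.9% and 21.1% in controls against 13.95% and 15.9% in test tumors. The other was its relative Etv4, which had 6.77% and 7.77% in controls against 5.48% and 6.73% in test tumors.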

How the data were processed

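H3K27ac ChIP-seq of 4 tumors was used, and the 4 matched input samples were not analysed here. Per the labels and the study's methods, the authors aligned reads to mm10 with BWA, then called peaks in each tumor against its input with MACS2. The deposited lists hold interval positions in bp and peak names, with no score, count, fold or p-value. Replicates were not pooled. Intervals had been joined, and the smallest gap within any list was 201 bp. What was removed before deposit is not given in the sources used here.

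Window coverage, joined regions (present in a tumor with an overlap of at least 1 bp) and promoters (1 kb either side of the 5′ end) were computed in Python 3.11.15 with pandas 2.3.3, and the code was tested on simulated intervals. Sequences were read with samtools 1.23.1 and from RefSeq promoters, which matched 8 of the 10 genes. The genes and lists were chosen with earlier results of these data known. Named were the 10 genes with their control-only and test-only, widest and promoter regions, their neighbors, the 3 genes nearest to Fgfr1, and up to 5 pathway genes per direction with the largest difference among those whose groups did not overlap. Cell type markers and Dusp6, Spry4, Etv4, Fgf11, Fgf12, Fgf14 and Fgf18 were outside this rule, and were chosen after their values were seen. With 2 tumors per group no test across genes was run. Nothing says whether tumors of a group came from separate litters or batches. Alternatives varied the window, interval filters, scaling, promoter width, transcript start and tumors used. RefSeq gene bodies were added after seeing the data. Lists of T cell, myeloid and adipocyte markers had promoter peaks at 1, 1, 1 and 0 of 10, at 7, 6, 5 and 5 of 10, and at 0 of 8 in each tumor, in the order control 1, control 2, test 1, test 2.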

Additional observations from a re-analysis of the deposited data

How the results depend on the processing

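In the 8 alternatives that kept coverage and all 4 tumors, the difference at Fgfr1 ranged from -8.93 to -5.52 and that at Spry2 from -2.11 to -1.06 percentage points. By peak number they were -8.0 and -1.0 peaks. Fgf2 turned to 0.5 more peaks in the test tumors when peaks were counted, and its groups overlapped once peaks within 1 kb were joined. Those of Spry2 overlapped after scaling by total covered length. With 20 kb windows 5 of the genes were higher in both control tumors (Fgfr4 and Spry1 in addition, against 12.9% of all genes), with 100 kb windows 4 (Spry1 in addition, likewise against 12.9%), and after scaling 1, Fgfr2, was higher in both test tumors. The median over the genes was -0.262 with 100 kb windows and -1.0 peaks when peaks were counted. Control-only regions numbered 13 with 100 kb windows (over all regions 3.41% as before), 4 with equal peak numbers (2.68%), 0 among peaks of at least 1 kb (2.47%) and 3 with joined peaks (2.88%). Test-only regions numbered 1 with peaks of at least 1 kb (2.08%), 3 with joined peaks (1.31%) and 1 with RefSeq bodies (1.47% as before).

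Leaving out a tumor makes separation easier to meet, since 1 tumor then stands for its group, and cannot turn the sign of a difference whose groups were separate. Each tumor in turn gave 3 to 6 genes higher in control (over all genes 20.5% to 46.6%) and 0 to 2 higher in test (29.4% to 48.5%). The median ranged from -1.49 (without control 1) to -0.298 (without test 2). There were 11 (without test 2) to 46 (without control 1) control-only regions, against 5.52% to 15.5% of all regions, and 10 to 25 (without test 2) test-only regions, against 3.30% to 11.2%. Between 5 and 7 promoters had a peak in all tumors kept. Of the pathway genes, 18 to 30 (without test 1) were higher in control and 11 to 19 (without test 2) in test, beside the same shares of all genes, and their median ranged from -0.451 (without test 1) to 0.0212 (without test 2). With coverage and all 4 tumors kept and Fgf10 left out, 66 of 72 values for single genes moved by less than the pairing SD. Most of the others were of Spry2, with 20 kb windows, equal peak numbers, peaks of at least 1 kb and scaling. The rest were Fgf2 with 100 kb windows and Spry1 with 20 kb windows. The cause was not tested. No paired analysis was possible because the labels give no replicate numbers, and the numbers used here only follow the order of the samples. Read depth is unknown, and the exact permutation of 2 against 2 tumors cannot reach a threshold.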
